A study of Mus musculus with 30 samples.

Results

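The nuclear genes of the mitochondrial respiratory chain were examined across 2 mouse cell lines and 5 transfection states. Members were taken by name. They are all symbols that begin with Nduf followed by a, b, c, s or v, the symbols Sdha to Sdhd, and symbols that begin with Uqcr, with Cox4 to Cox8 or with Atp5. The rule found 98 transcript clusters (sets of probes read as 1 transcript) that carried 1 symbol. These gave 89 genes of 22180 genes with a cluster of 1 symbol on the array, and the cluster of highest mean over 30 arrays stood for a gene with several. For 9 members with a second cluster, the sign of the difference between untransfected lines disagreed for Atp5h (0.55, and -0.64 on the other cluster) and Ndufa11 (-0.58, and 0.05). Another 10 clusters carried several symbols and were left out. They hold Cox6c, Uqcr10, Ndufb2, Ndufb4 and Ndufs6, which are not analysed here.

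Mouse embryonic stem cells (mESCs) of the ES-D3 line were compared with immortalized multipotent otic progenitor (iMOP) cells. The mESCs were grown with leukaemia inhibitory factor on arrested embryonic fibroblasts. The iMOP cells descend from 1 clone of Sox2-positive progenitors, taken from the cochlea of mouse embryos and immortalized by a short period of c-Myc expression, and were cultured with basic fibroblast growth factor. Each line was left untransfected or was analysed 48 h after transfection with a plasmid in which the EF-1 alpha promoter drives red fluorescent protein (RFP) alone (pT), Atoh1 with a Myc tag and RFP (pAT), the miR-183 family and RFP (p183T), or all of these (p183AT). Atoh1 is the transcription factor that starts hair cell differentiation, and the miR-183 family is a microRNA group of sensory cells. Transfected cells were sorted for RFP, and untransfected cells are labelled only as unmanipulated. Each of the 10 groups had 3 arrays from samples described as biological replicates, without saying whether they came from separate cultures, so p-values cover only the spread among these arrays.

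The respiratory chain passes electrons from NADH (complex I) and succinate (complex II) through complex III to oxygen at complex IV, and complex V uses the resulting proton gradient to make ATP. A few core subunits are encoded in mitochondrial DNA, and all others are nuclear genes whose products are imported. Several subunits of complex IV exist as a widely expressed form and as forms restricted to muscle, testis, lung or low oxygen. Pluripotent stem cells are known for reliance on glycolysis beside respiration, and mature hair cells are known for high mitochondrial demand.

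Among the 89 members, 32 are subunits of complex I, 8 are complex I assembly factors (Ndufaf genes), 4 belong to complex II, 7 to complex III, 19 to complex IV with Ndufa4, Ndufa4l2 and Cox7a2l, and 17 to complex V. The other 2 are pseudogenes, Atp5c1-ps and Uqcrh-ps1. Values are log2 intensities made by the authors with the RMA method, and a member is named dim where a group's mean lay under log2 5. Between 9 and 11 members were dim in each group, and 6 were dim in every group (Cox7b2, Cox8b, Cox8c, Ndufs5 and both pseudogenes). All members were kept in the tests. Differences against a dim group can be understated on this scale, and levels are compared between groups and never between genes. In bulk samples, fewer cells of a type and less RNA per cell cannot be told apart. Array medians over the 25341 clusters with a symbol lay between log2 4.78 and 5.14. Replicates correlated at r = 0.975 or more across these clusters, with the lowest value among iMOP cells with pT. The label of the stem cells was borne out by pluripotency markers, of which 14 of 14 were lower in untransfected iMOP cells. Markers of otic progenitors were divided, with 5 of 11 higher in untransfected iMOP cells and 5 lower. Dlx5, an otic placode factor, had a mean of log2 8.86 in iMOP cells and 3.48 in mESCs, and Pou3f4, Zic1, Eya1 and Sox9 were also higher. Sox2 (8.64 and 10.70), Gata3 (4.60 and 5.14), Pax2, Pax8 and Oc90 were lower, the last 4 of these dim in iMOP cells. Pax2 (3.65), Pax8 (4.77) and Oc90 (4.64) were dim in untransfected mESCs as well. Among 15 fibroblast markers, 7 were dim in untransfected mESCs, Col1a1 had a mean of log2 6.21 and Fn1 of 11.1, and a part of feeder cells in the mESC values was not tested.

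**Figure D1:**
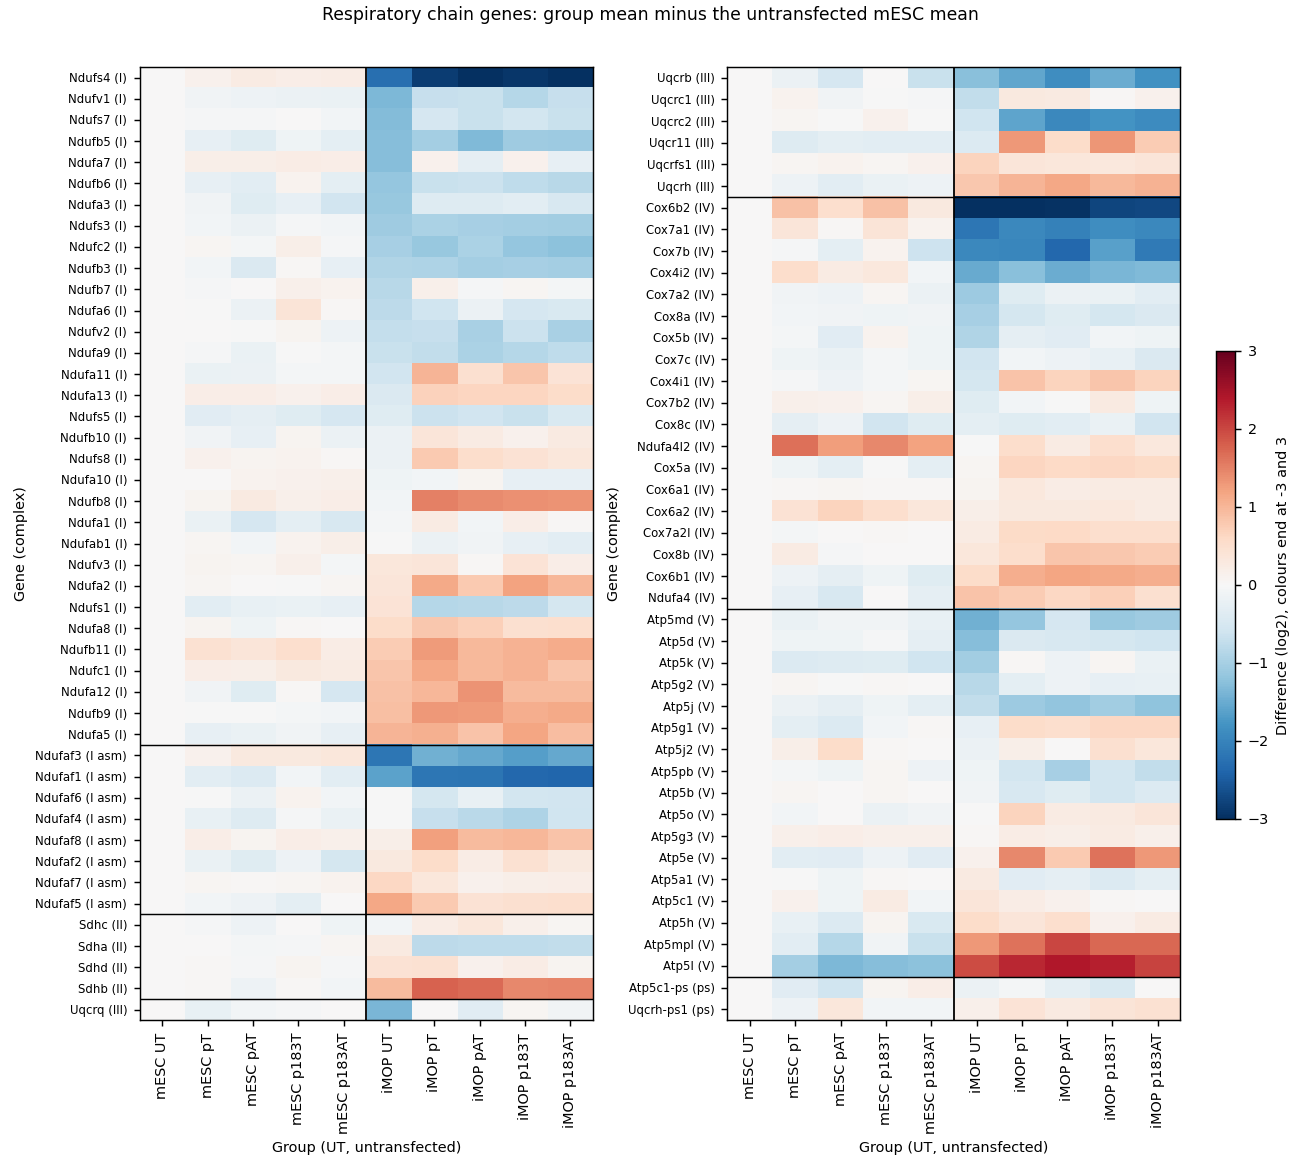
Difference (log2) of each group mean (3 arrays) from the untransfected mESC mean for the 89 members, in rows by complex (asm, assembly factor, ps, pseudogene) and in columns by line and vector. The lines differ in most rows, the mESC columns differ little among themselves, and the 4 transfected iMOP columns resemble each other more than the untransfected iMOP column, as for Uqcr11, Ndufb8, Atp5e and Sdha.

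Promoter sequence was a feature that the choice of members did not use. RefSeq promoters of the GRCm38.p6 build, from 250 bases before to 50 after each transcription start, were found for 72 of the 89 members. Nuclear respiratory factor 1 (NRF-1) is a transcription factor known for binding promoters of respiratory chain genes, as are ETS factors such as Gabpa and the factor YY1. The letters GCGCATGC, on either strand, which are part of the NRF-1 recognition sequence, stood in the promoters of 12 of 72 members (16.7%) and of 3.05% of 27025 genes in the table. The shorter NRF-1 letters TGCGCA, which can overlap the longer ones, stood in 17 members (23.6%) and 8.79% of genes. ETS letters (CCGGAAG) stood in 19 members (26.4%) and 9.93% of genes, and YY1 letters (AAGATGGC) in 10 members (13.9%) and 3.19% of genes. Sp1 letters (GGGCGG), common in promoters of all kinds, stood in 34 members (47.2%) and 38.2% of genes. Of the 72 members, 34 (47.2%) held NRF-1, ETS or YY1 letters, against 14.9% of genes. A match describes the letters and is not a measured binding site.

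The NRF-1 letters are printed for 5 members that are described in the results, each within 30 bases of reference sequence (29 for Atp5l) on the strand of the gene, with the matched letters in capitals (GCGCATGC or its reverse complement GCATGCGC).
Uqcr11: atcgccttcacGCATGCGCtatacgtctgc
Ndufa11: acctgcactgcGCGCATGCgcgcacgcctt
Atp5k: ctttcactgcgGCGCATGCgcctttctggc
Sdhb: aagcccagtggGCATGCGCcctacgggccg
Atp5l: aaccaataacGCATGCGCatttcccccac
In GRCm38.p6 they lie at chr10:80406807-80406836 on the minus strand for Uqcr11, chr17:56717691-56717720 on the plus strand for Ndufa11, chr5:108434431-108434460 on the minus strand for Atp5k, chr4:140961206-140961235 on the plus strand for Sdhb and chr9:44920964-44920992 on the minus strand for Atp5l. In Uqcr11 the match begins 4 bases before the start, and in Atp5l it begins 240 bases before it. Both orders of the letters overlap in Ndufa11 and Atp5k.

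The comparison of the untransfected lines asked how the otic progenitor differs from the stem cell before any vector. Members moved in both directions. With limma on the 6 arrays and Benjamini-Hochberg adjustment over all 25341 clusters, 18 of 89 members were higher in iMOP cells (20.2%) and 38 were lower (42.7%), where 18.3% of all tested clusters were called higher and 39.2% lower. Both shares were near the background. The median difference of the members was -0.17 on the log2 scale, beside -0.20 over all clusters. Scaling moved this split. Quantile normalization over 30 arrays gave 28 higher and 30 lower, with a median of all clusters of 0.04, and centring each array on its median gave 29 higher and 31 lower, with a median of all clusters of 0.11. No member called in the main fit was called in the opposite direction under either.

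By complex, 6 of 32 complex I subunits were higher and 17 lower, with a median difference of -0.39. Complex III had 2 higher and 5 lower among 7 members (median -0.59), complex IV had 2 higher and 9 lower among 19 (median -0.35), and complex V had 4 higher and 5 lower among 17 (median -0.11). In complex II, 2 of 4 members were higher, Sdhb and Sdhd, and 0 were lower by limma (median 0.35), and the only negative difference was -0.07, for Sdhc. Of the 8 Ndufaf assembly factors, 2 were higher and 2 lower (median 0.09). The shares of all clusters to set beside these counts are 18.3% higher and 39.2% lower. Counts and medians by complex are those of the main fit and were not made under the other scalings. Calls lost under both scalings, named below, fell in complexes I, III and IV.

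**Figure D2:**
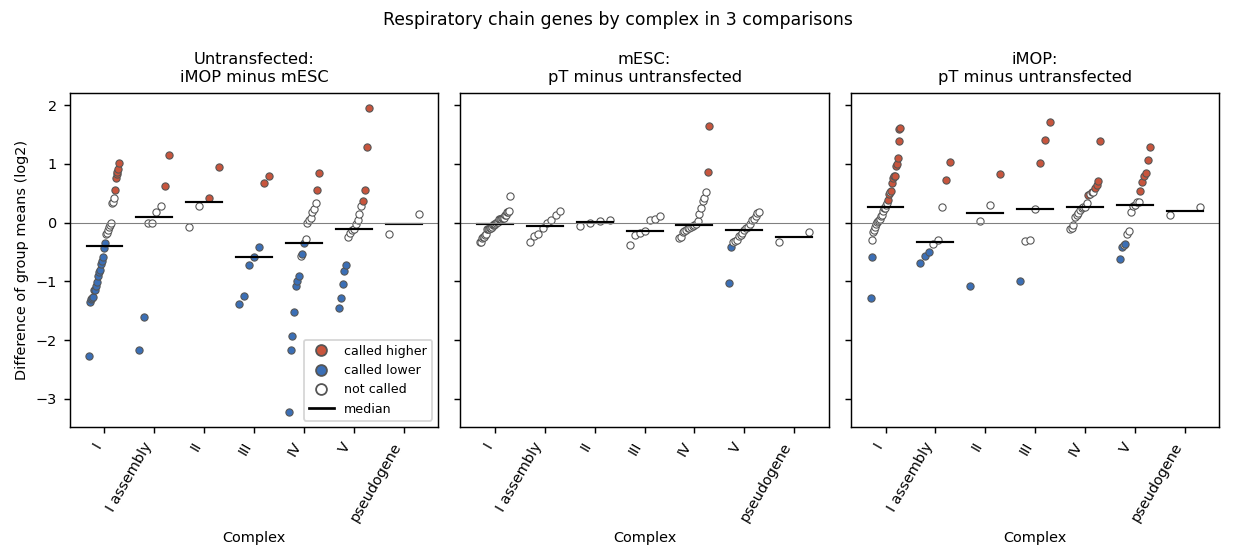
Difference of group means (log2) of every member by complex in 3 comparisons, with filled points for members called by limma at an adjusted p under 0.05 and a line at the median of each complex. The lines differ in both directions (18 higher, 38 lower), pT moved 4 members in mESCs, and pT moved 41 members in iMOP cells, mostly upwards (31 of 41).

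The members of highest difference, Atp5l and Atp5mpl, were membrane subunits of ATP synthase. Atp5l, subunit g of its dimer-forming part, measured log2 7.15, 7.30 and 7.96 in untransfected mESCs and 9.06, 9.73 and 9.49 in untransfected iMOP cells. All iMOP arrays lay above all mESC arrays, and the difference was 1.95 (SE 0.23, adjusted p = 2.86e-05). Atp5mpl, a small proteolipid of the same enzyme, measured 7.29, 7.24 and 7.50 in mESCs and 8.23, 8.80 and 8.88 in iMOP cells. Its groups did not overlap, with a difference of 1.29 (SE 0.18, adjusted p = 9.73e-05). Ndufaf5, which modifies a core subunit while complex I is built, measured 4.82, 4.81 and 5.04 in mESCs, on average a dim value, and 6.05, 6.02 and 6.08 in iMOP cells. The iMOP arrays were all higher (difference 1.16, SE 0.12, adjusted p = 1.41e-05). Other members higher in iMOP cells were Ndufa5 (1.01) and Ndufb9 (0.91) of complex I, Sdhb (0.95), the iron-sulfur subunit of complex II, and Ndufa4 (0.85) of complex IV. The membrane subunits of ATP synthase were divided, and Atp5md (-1.45) and Atp5k (-1.04) among them were lower in iMOP cells.

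The lowest difference belonged to Cox6b2, the complex IV subunit known from testis. It measured 7.72, 7.29 and 7.27 in untransfected mESCs and 4.13, 4.31 and 4.18 in untransfected iMOP cells. The iMOP arrays were dim and all below the mESC arrays, and the gene was lower by -3.22 (SE 0.15, adjusted p = 2.53e-08). Ndufs4, an accessory subunit of the matrix arm of complex I whose loss causes a Leigh-like disease in mouse and human, measured 9.64, 9.77 and 9.88 in mESCs and 7.36, 7.54 and 7.59 in iMOP cells. Neither line approached the other (difference -2.26, SE 0.13, adjusted p = 1.19e-07). Ndufaf3, which acts early in complex I assembly, measured 8.49, 8.26 and 8.06 in mESCs and 6.33, 5.96 and 6.02 in iMOP cells, a difference of -2.17 (SE 0.15, adjusted p = 6.62e-07) with no overlap. Further down in iMOP cells were Cox7b (-1.94), Ndufaf1 (-1.60), which helps to assemble the membrane arm of complex I, and Atp5md (-1.45), a small membrane subunit of ATP synthase. Some core subunits of complex I were among the lower members. Ndufv1, which binds the flavin that accepts electrons from NADH, was at -1.35, Ndufs7 at -1.30, Ndufs3 at -1.07 and Ndufv2 at -0.70. The core subunits Ndufs8 (-0.18) and Ndufs1 (0.42, with all iMOP arrays above all mESC arrays) were not called. Calls of 7 lower members were lost under both scalings (Cox4i1, Cox7b2, Ndufa11, Ndufa13, Ndufs5, Uqcr11 and Uqcrc2), and those of Ndufa6 and Ndufa9 under quantile normalization, where the Ndufa13 difference was 0.02.

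The restricted isoforms of complex IV were followed beside their common partners. Cox4i2, known from lung and from its response to low oxygen, measured 6.19, 6.01 and 6.04 in untransfected mESCs and 4.32, 4.61 and 4.74 in iMOP cells, which were dim and lower (difference -1.52, SE 0.14, adjusted p = 5.23e-06). Its partner Cox4i1 measured 9.47, 9.59 and 9.44 in mESCs and 8.77, 9 and 9.14 in iMOP cells (difference -0.53, SE 0.13, adjusted p = 0.00603). Both were lower in iMOP cells, but the call of Cox4i1 was lost under quantile normalization (-0.08) and under centring (-0.22). Cox7a1, the muscle form, measured 7.37, 7.41 and 7.14 in mESCs and 5.05, 5.11 and 5.29 in iMOP cells (difference -2.16, SE 0.13, adjusted p = 2.21e-07). Its partner Cox7a2 measured 9.75, 9.82 and 10 in mESCs and 8.34, 8.96 and 9.02 in iMOP cells, also lower, by -1.09 (SE 0.18, adjusted p = 0.000444). The Cox6b pair moved apart. Cox6b1, the common partner of Cox6b2, measured 8.28, 8.46 and 8.61 in mESCs and 8.59, 9.26 and 9.18 in iMOP cells. It was higher in iMOP cells by 0.56 (SE 0.18, adjusted p = 0.0227), although 1 iMOP array fell within the mESC range.

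The remaining restricted forms showed smaller differences or lay near the floor of the arrays. Ndufa4l2, a relative of Ndufa4 induced by low oxygen, measured 5.02, 4.72 and 4.76 in untransfected mESCs and 4.68, 4.99 and 4.82 in iMOP cells, with overlapping groups (adjusted p = 0.972). Ndufa4 itself was higher in iMOP cells (9.82, 10.30 and 10.12 against 9.31, 9.17 and 9.2, adjusted p = 0.000498). Cox6a2, the muscle form of Cox6a, ranged from 4.45 to 5.23 in mESCs and from 4.66 to 5.65 in iMOP cells and overlapped (adjusted p = 0.59), as did its partner Cox6a1 (adjusted p = 0.671). Cox7b2 (testis) averaged 2.14 in mESCs and 1.79 in iMOP cells, Cox8b (heart) 3.54 and 3.88, and Cox8c (testis) 3.48 and 3.20, all dim in every group, while their partners Cox7b and Cox8a were lower in iMOP cells, at -1.94 and -1.0.

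**Figure D3:**
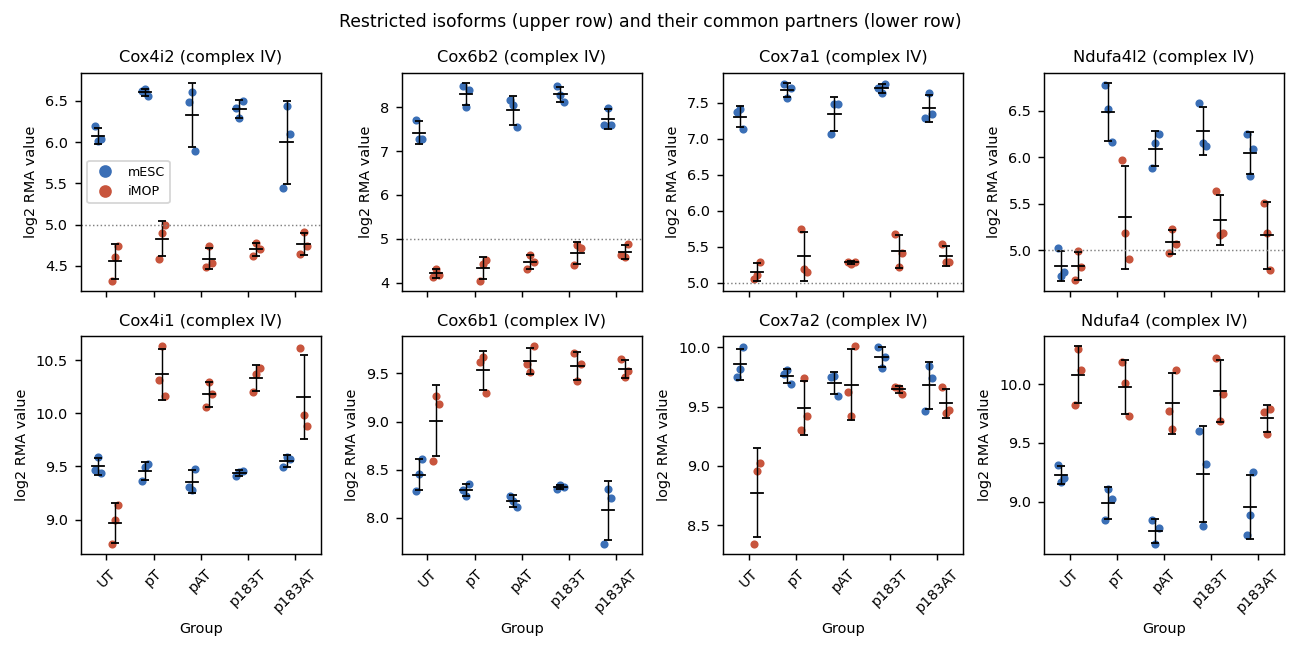
Log2 RMA values of 4 restricted complex IV isoforms (upper row) and their common partners (lower row) on every array by vector and line, with the mean and SD of 3 arrays and a dotted line at log2 5, below which a mean is called dim. Cox6b2, Cox7a1 and Cox4i2 are higher in mESCs in every group, Cox6b1 and Ndufa4 are higher in iMOP cells, and Ndufa4l2 rises with transfection in mESCs.

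The lines were also compared in cells with the same vector, as comparisons added after the data were seen. These 5 line comparisons share no arrays. With pT, 32 members were higher in iMOP cells and 30 lower, where 21.8% and 36.3% of clusters were called. With pAT the counts were 31 and 28 (background 21.2% and 38.2%), with p183T 31 and 33 (23.0% and 38.6%), and with p183AT 26 and 29 (18.1% and 36.7%). The higher share of members lay above its background in each transfected state, between 29.2% and 36%. The lower share was 33.7% with pT, 31.5% with pAT, 37.1% with p183T and 32.6% with p183AT, below its background in each, with p183T by little. Quantile normalization and centring, which moved the split of the untransfected lines, were not applied to the comparisons with a vector.

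Members called higher in iMOP cells in all 5 conditions numbered 10, or 11.2% of members beside 8.59% of clusters. They were Atp5l, Atp5mpl, Cox6b1, Ndufa4, Ndufa5, Ndufa12, Ndufb9, Ndufc1, Sdhb and Uqcrh. Another 19 (21.3%, beside 22.9% of clusters) were lower in all 5, with Cox6b2 (-3.97 to -3.03), Ndufs4 (-3.61 to -2.26) and Cox7a1 (-2.32 to -2.05) among them. Uqcr11 and Cox4i1 were lower untransfected and higher in all 4 transfected states, a pattern of 2.25% of members and 0.257% of clusters. For Uqcr11 the difference between lines was -0.42 untransfected and 0.86 to 1.67 with a vector. Their untransfected calls were lost under both scalings. A further 8 members were not called untransfected and were higher in all 4 transfected states (8.99%, beside 4.44% of clusters), among them Atp5e, Ndufb8 and Ndufa2, and 4 were not called untransfected and lower in all 4 (4.49%, beside 6.16%), namely Atp5b, Atp5pb, Ndufa4l2 and Sdha.

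Cells with the control vector pT were then compared with untransfected cells of the same line, in a limma fit of the 15 arrays of a line. This contrast holds the plasmid, the transfection reagent and RFP together, and also the sort if untransfected cells were not sorted, which the labels do not say. In mESCs, 2 members were higher and 2 lower, or 2.25% each, where 7.07% of clusters were called higher and 6.07% lower. The median difference was -0.04, beside -0.02 over all clusters. At an unadjusted p under 0.05, 5 members were higher and 3 lower, or 8.99% together. The share of all clusters at this p was not counted, but it cannot be under the 7.07% and 6.07% called after adjustment.

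Both members that rose in mESCs were restricted isoforms of complex IV. Ndufa4l2 measured 5.02, 4.72 and 4.76 untransfected and 6.78, 6.52 and 6.16 with pT. The pT arrays lay above all untransfected arrays, with a difference of 1.65 (SE 0.18, adjusted p = 1.16e-05). In the other transfected mESC groups Ndufa4l2 lay between 5.80 and 6.58. Cox6b2 measured 7.72, 7.29 and 7.27 untransfected and 8.49, 8.01 and 8.40 with pT, without overlap (difference 0.87, SE 0.19, adjusted p = 0.00518). Cox4i2 (0.52) and Cox7a1 (0.37) had pT arrays above all untransfected arrays but were not called (adjusted p = 0.124 and 0.0896). The restricted forms Cox6a2 (0.42), Cox8b (0.24), Cox7b2 (0.15) and Cox8c (-0.26) had overlapping groups and were not called. Ndufa4, the partner of Ndufa4l2, measured 9.31, 9.17 and 9.2 untransfected and 8.84, 9.11 and 9.02 with pT and was not called.

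Both members that fell were membrane subunits of ATP synthase. Atp5l measured 7.15, 7.30 and 7.96 untransfected and 6.60, 6.57 and 6.16 with pT, and it was lower by -1.03 (SE 0.23, adjusted p = 0.00677) with no overlap. Atp5k, subunit e and the neighbour of subunit g, measured 8.85, 8.77 and 8.72 untransfected and 8.37, 8.41 and 8.31 with pT. Its groups did not overlap (difference -0.41, SE 0.12, adjusted p = 0.0303), but the call was lost whichever of the 6 arrays was left out, with differences from -0.44 to -0.38 and adjusted p up to 0.0991. The methods' test after Benjamini-Hochberg adjustment called 2 members higher and 1 lower, and Cox6b2 and Atp5l were not among them. In complexes I, II and III and among the Ndufaf genes limma called 0 members, and Uqcr11 (-0.38) alone had an unadjusted p under 0.05. Of the fibroblast markers, 2 were higher and 2 lower with pT, with Pdgfra (0.69) and Pdgfrb (0.70) higher and Lox (-1.57) and S100a4 (-0.79) lower. The summed linear level of these markers ranged from 2592 to 2834 untransfected and from 2708 to 2816 with pT, and without Fn1, which held most of it, from 451 to 483 and from 422 to 459. Their part in the result was not tested.

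In iMOP cells the same contrast moved far more members. With pT, 31 members were higher (34.8%) and 10 lower (11.2%), where 19.4% of clusters were called higher and 21.9% lower. The median difference of members was 0.26, beside 0.09 over all clusters. Quantile normalization gave 39 higher and 5 lower. The methods' test after Benjamini-Hochberg adjustment gave 16 higher and 4 lower, and it did not call Uqcr11, Ndufa11 or Uqcrc2. For Uqcr11, Ndufa11, Sdha and Ndufs1 the arrays with pT differed more among themselves than the untransfected ones.

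Complex III held both the highest difference and a low one. Uqcr11, its smallest subunit, measured 6.47, 6.78 and 6.81 in untransfected iMOP cells and 7.58, 9.30 and 8.31 with pT. All pT arrays were higher, with a wide spread, and the difference was 1.71 (SE 0.29, adjusted p = 0.00015). Uqcrq, another small subunit, measured 5.05, 5.11 and 5.22 untransfected and 6.30, 6.94 and 6.34 with pT (difference 1.4, SE 0.19, adjusted p = 1.36e-05). Uqcrc2, a large core subunit, went the other way. It measured 9.89, 9.47 and 9.43 untransfected and 8.90, 8.43 and 8.5 with pT, below all untransfected arrays, a difference of -0.99 (SE 0.21, adjusted p = 0.00106). Uqcrc1, the other core subunit, was higher by 1.01 (SE 0.17, adjusted p = 9.76e-05), so the core pair moved apart.

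In complex I, 13 of 32 subunits were higher and 2 lower (median 0.27). Ndufa11, an accessory subunit of the membrane arm, measured 8.33, 8.75 and 8.59 untransfected and 9.47, 10.84 and 10.18 with pT. Its groups were well apart and its pT arrays spread widely (difference 1.61, SE 0.27, adjusted p = 0.000118). The other cluster of Ndufa11 gave a smaller difference, 0.80. Ndufb8, also of the membrane arm, measured 6.12, 6.60 and 6.72 untransfected and 8.03, 8.34 and 7.88 with pT (difference 1.60, SE 0.18, adjusted p = 3.43e-06). Ndufa7 (1.39) and Ndufa13 (1.11) followed, and the core subunits Ndufs8 (0.97), Ndufs7 (0.79) and Ndufv1 (0.68) were higher too. Ndufs1, the largest core subunit and a carrier of iron-sulfur clusters, had the lowest difference of all members. It measured 8.55, 8.66 and 8.54 untransfected and 7.49, 6.84 and 7.56 with pT, a difference of -1.29 (SE 0.18, adjusted p = 2.02e-05) with no overlap. Ndufs4 was lower by -0.59 (adjusted p = 0.00721, a call lost under quantile normalization).

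Complex II divided between its catalytic pair. Sdha, the flavoprotein that oxidizes succinate, measured 9.60, 9.64 and 9.64 in untransfected iMOP cells and 8.87, 8.13 and 8.67 with pT. It was lower on every pT array, by -1.07 (SE 0.16, adjusted p = 3.43e-05). Sdhb measured 8.11, 8.18 and 8.14 untransfected and 9.19, 8.99 and 8.73 with pT and was higher on every pT array, by 0.82 (SE 0.14, adjusted p = 0.000108). The membrane anchors Sdhc and Sdhd were not called.

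In complex IV 6 of 19 members were higher and limma called 0 lower, where also 0 were lower at an unadjusted p under 0.05. Cox4i1 measured 8.77, 9 and 9.14 untransfected and 10.31, 10.63 and 10.16 with pT (difference 1.4, SE 0.18, adjusted p = 1.07e-05). Cox7a2 (0.72), Cox5b (0.64), Cox5a (0.58), Cox6b1 (0.52) and Cox8a (0.46) were higher as well. These are common forms, but others such as Cox7c (0.48), Cox6a1 (0.25), Cox7b (-0.03) and Ndufa4 (-0.10) were not called. Of the restricted forms, Ndufa4l2 measured 4.68, 4.99 and 4.82 untransfected and 5.97, 5.18 and 4.91 with pT (adjusted p = 0.074), Cox6b2 changed by 0.12 and Cox7a1 by 0.21, and none was called. Ndufa4l2 (mean 4.83) and Cox6b2 (4.20) were dim in untransfected iMOP cells, where differences can be understated. In complex V 6 of 17 members were higher, led by Atp5e of the central stalk (1.30) and Atp5k (1.07), and 3 were lower, Atp5a1 (-0.62) and Atp5b (-0.37), which form the catalytic head, and Atp5pb (-0.42) of the peripheral stalk. The other cluster of Atp5e gave 0.79, while those of Atp5d (1.38) and Cox5b (1.24) gave more than the chosen clusters. The Ndufaf factors divided, with Ndufaf8 (1.03) and Ndufaf3 (0.73) higher and Ndufaf4 (-0.69), Ndufaf1 (-0.57) and Ndufaf6 (-0.50) lower.

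**Figure D4:**
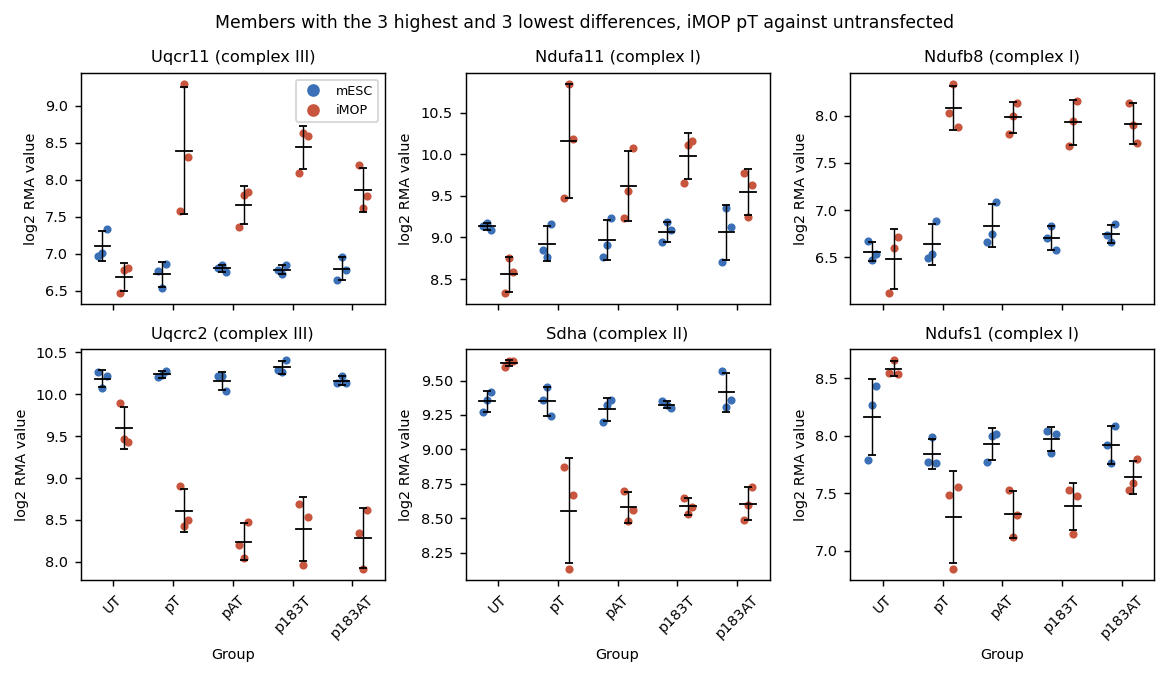
Log2 RMA values on every array, with the mean and SD of 3 arrays, of the 3 members with the highest and the 3 with the lowest difference between pT and untransfected iMOP cells. The transfected iMOP groups lie together and apart from untransfected iMOP cells, while the mESC groups lie closer to each other than the iMOP groups.

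The direction in iMOP cells ran with gene span, the distance from the first to the last base of a gene in RefSeq. Members called higher had a median span of 5.72 kb and members called lower of 20.5 kb. Uqcr11 spans 3.83 kb, Ndufa11 6.49 kb and Ndufb8 6.87 kb, while Ndufs1 spans 33.2 kb, Sdha 28 kb and Uqcrc2 24.3 kb. Across the 87 members with a span, Spearman's rho between span and difference was -0.37, and across 7768 protein-coding genes with a mean of at least log2 6 it was -0.54, where all genes share the same 6 arrays. The median difference of all genes was 0.57 under 3.16 kb (431 genes), 0.27 from 3.16 to 10 kb (1442 genes), -0.21 from 10 to 31.6 kb (2770 genes), -0.77 from 31.6 to 100 kb (2243 genes) and -0.86 over 100 kb (882 genes). The members in these classes, which were not filtered by level, had medians of 0.59 (18 members), 0.30 (41 members), 0.13 (22 members), -0.36 (3 members) and 0.26 (3 members). The 3 members over 100 kb were Cox7b2 (0.26, dim in every group), Ndufaf2 (0.27, not called) and Ndufs4 (-0.59, called lower). Only Ndufs4 had a mean of at least log2 6 (8.38, beside 2.16 for Cox7b2 and 5.15 for Ndufaf2), so their median cannot be set against the trend of all genes. Members are short genes, with a median of 7.39 kb beside 23.9 kb over all genes. Taken relative to the median of genes of like span in 20 bins, an alternative chosen after seeing the data, the median of members went from 0.27 to 0.08, and 49 of 87 lay above 0 in place of 62. The relative difference was 1.33 for Uqcr11 and 1.35 for Ndufa11, and it was -0.74 for Ndufs1, -0.56 for Uqcrc2 and -0.51 for Sdha. Ndufs4, which was called lower, turned to 0.33, and Cox8a (-0.10) and Ndufb10 (-0.02), which were called higher, fell below 0. In mESCs rho over the same genes was 0.12, and between the untransfected lines 0.07. Pluripotency markers also moved with pT in iMOP cells, where 7 of 14 were higher and their summed linear level rose from a range of 280 to 288 to one of 326 to 430, beside 12738 to 13542 in untransfected mESCs, and 9 of 14 were dim with pT. Their part in the result was not tested.

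**Figure D5:**
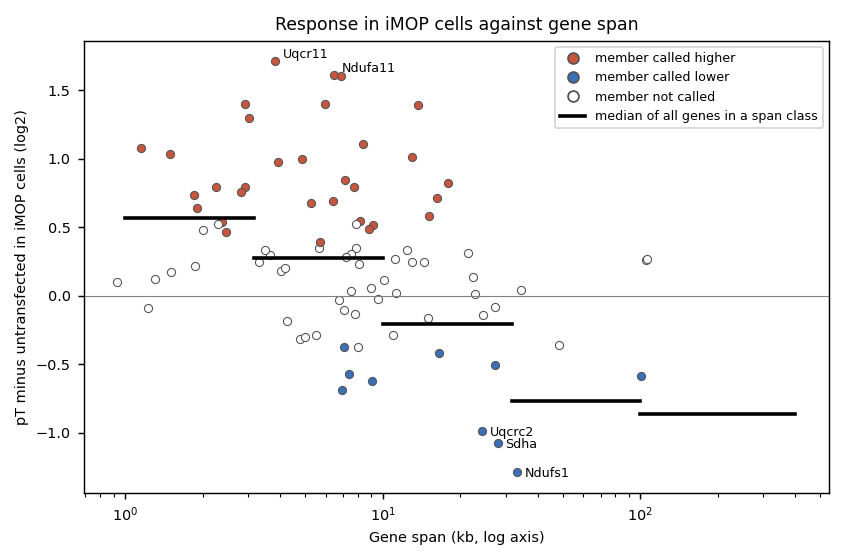
Difference between pT and untransfected iMOP cells (log2) of the 87 members with a RefSeq gene span, against span in kb on a log axis, with bars for the median of all protein-coding genes in 5 span classes, the shortest and longest of which are open ended. Members called higher have a median span of 5.72 kb and members called lower of 20.5 kb, and the medians of all genes fall from 0.57 in the shortest class.

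All 30 arrays entered the test of whether this response differed between the lines. The response was higher in iMOP cells for 32 members and lower for 8, or 36% and 8.99%, where 15.6% of clusters were called higher and 20.0% lower. This difference also ran with gene span, with a median span of 6.2 kb for members called higher and 16.7 kb for members called lower, and with a Spearman's rho of -0.32 across the 87 members and -0.55 across the 7768 genes. Uqcr11 (2.09, SE 0.35, adjusted p = 3.21e-05), Ndufa11 (1.82, SE 0.34), Atp5e (1.62, SE 0.28), Uqcrq (1.61, SE 0.22), Ndufb8 (1.52, SE 0.23) and Atp5k (1.49, SE 0.20) differed most in the upward direction. Atp5k measured 8.85, 8.77 and 8.72 in untransfected mESCs and 8.37, 8.41 and 8.31 with pT, and in iMOP cells 7.51, 7.85 and 7.84 untransfected and 8.44, 9.12 and 8.86 with pT. Its arrays moved in opposite directions in the lines. Atp5e measured 7.22, 7.04 and 6.56 and then 6.43, 6.56 and 6.87 in mESCs, which overlap, and 6.82, 7.10 and 7.32 and then 8.01, 8.87 and 8.25 in iMOP cells, which do not. Ndufa4l2 (-1.13, SE 0.30, adjusted p = 0.00442), Sdha (-1.07), Uqcrc2 (-1.04), Ndufs1 (-0.96) and Cox6b2 (-0.75) were in the opposite direction. The response of Ndufa4l2 was 1.65 in mESCs and 0.53 in iMOP cells, and that of Cox6b2 was 0.87 and 0.12. The reagent differed between the lines (a Lipofectamine for mESCs, jetPRIME for iMOP cells), and iMOP cells were sorted straight into lysis buffer while mESCs were collected in medium, so line, reagent and collection cannot be told apart.

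Atoh1 and the miR-183 family were asked about by setting pAT, p183T and p183AT against pT, and p183AT against pAT. Limma called 0 of 89 members in each of these 8 comparisons. Counts at an unadjusted p under 0.05 leaned downwards in some of them. In mESCs, 0 members were higher and 4 lower at this p with pAT, beside 4.84% and 3.49% of clusters, with 0.797% of clusters called after adjustment. With p183T 1 was higher and 0 lower (beside 1.27% and 1.06%, and 0.0118% called), with p183AT 1 and 8 (beside 6.52% and 4.52%, and 1.05% called), and for p183AT against pAT 2 and 0 (beside 2.51% and 2.37%, and 0.0118% called). In iMOP cells 3 were higher and 7 lower with pAT (beside 3.40% and 3.29%, and 0.0197% called), 2 and 2 with p183T (beside 1.88% and 1.98%, and 0.0118% called), 1 and 7 with p183AT (beside 3.48% and 2.94%, and 0.138% called), and 1 and 4 for p183AT against pAT (beside 1.91% and 2.07%, and 0.0118% called). The median of members was -0.07 with pAT and -0.06 with p183AT in mESCs and -0.09 and -0.13 in iMOP cells, where that of all clusters lay between -0.01 and 0.02. These comparisons share the pT arrays of a line. The methods' test called 0 after Benjamini-Hochberg adjustment, and at the study's own thresholds 1 member for p183AT against pAT in mESCs, 1 for pAT against pT in iMOP cells and 0 in the others. The 95% interval of a typical member reached 0.30 to either side in mESCs and 0.37 in iMOP cells before adjustment over the 25341 clusters, and some larger differences were not called either.

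The members nearest to a call were few and of several complexes. In mESCs with p183AT, Ndufa3 measured 8.94, 9.42 and 9.38, below 9.56, 9.71 and 9.85 with pT (difference -0.46, SE 0.14, adjusted p = 0.19). Cox6b2 measured 7.60, 7.99 and 7.59 with p183AT, below 8.49, 8.01 and 8.40 with pT (difference -0.57, SE 0.19, adjusted p = 0.225). In iMOP cells with pAT, Atp5md measured 11.03, 10.81 and 11.38, above 10.23, 10.60 and 10.37 with pT (difference 0.67, SE 0.18, adjusted p = 0.331). The groups did not overlap in any of these, and none passed the threshold. The other comparisons were further from it, with the smallest adjusted p at 0.429 for pAT in mESCs, at 0.703 for p183AT in iMOP cells, and at 0.991 or more for p183T in either line and for p183AT against pAT in either line.

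Differences between the lines in these responses were not called either. Limma called 0 members for pAT (12 at an unadjusted p under 0.05, or 13.5%, beside 7.49% of clusters and 0.312% called), 0 for p183T (4, or 4.49%, beside 2.90% and 0% called) and 0 for p183AT (5, or 5.62%, beside 8.16% and 0.320% called). The smallest adjusted p was 0.112, for Cox6b2 with p183AT, whose difference of 0.94 (SE 0.25) came with lower values in mESCs and a dim gene in iMOP cells. The methods' test was not run on these differences.

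Other genes of the pathway were described from lists. The mitochondrial DNA encoded subunits were measured by 10 clusters. Untransfected iMOP cells were higher in 9 of them and limma called 0 lower, with 0 lower also at an unadjusted p under 0.05, and ND3 had means of 12.6 in mESCs and 12.5 in iMOP cells. The median difference was 0.56, and ND6, the subunit read from the other strand of the mitochondrial genome, was higher by 2.31 (SE 0.31, adjusted p = 8.5e-05), with means of log2 8.83 and 11.1. With pT in iMOP cells ND5 (-0.56) and ND4 (-0.37) were lower, limma called 0 higher, and at an unadjusted p under 0.05 5 were lower and 0 higher, with a median of -0.25. Both comparisons share the untransfected iMOP arrays, here and for each list that follows, and the shares of all clusters to set beside the counts are 18.3% higher and 39.2% lower between the untransfected lines, and 19.4% higher and 21.9% lower with pT in iMOP cells.

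Among citrate cycle genes, which feed the chain with NADH and succinate, 6 of 15 were higher in untransfected iMOP cells and 1 lower (median 0.31), led by Pdha1 (1.43), Suclg2 (1.36), Dld (1.23) and Suclg1 (0.91). With pT in iMOP cells, 9 of 15 were lower and limma called 0 higher, as at an unadjusted p under 0.05 (median -0.72), led by Dld (-1.56), Pdha1 (-1.39), Suclg2 (-1.29) and Idh3a (-1.02). The lower share was 6.67% between the lines and 60% with pT. The list has a median span of 23.3 kb. Of 20 regulators of mitochondrial biogenesis, 4 were higher and 6 lower in untransfected iMOP cells, among them the coactivator Ppargc1a (2.33), Esrrb (-2.83), which is also a pluripotency gene, and Tfb1m (-2.03), a methyltransferase of mitochondrial ribosomal RNA. With pT in iMOP cells 3 were higher and 10 lower (median -0.43, median span 24.5 kb), led by the ETS factor Gabpa (-1.37), Mterf1a (-1.33) and Ppargc1a (-1.16). The regulators' lower share was 30% between the lines and 50% with pT. In mESCs limma called 0 of 15 citrate cycle genes with pT (1 at an unadjusted p under 0.05) and 1 of 20 regulators, Top1mt (0.56).

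Genes that build the complexes and import their parts were counted as well. Of 71 mitochondrial ribosomal protein genes (median span 7.75 kb), 14 were higher and 39 lower in untransfected iMOP cells (median -0.41), and 31 were higher and 9 lower with pT in iMOP cells (median 0.15). The higher share, 19.7%, was near that of all clusters between the lines and was 43.7% with pT, and the lower share was 54.9% and 12.7%. Mrpl23 (-2.86) had the lowest difference between the lines and Mrpl54 (1.84) the highest with pT. Of 30 assembly factors of complexes II to V, 4 were higher and 16 lower in untransfected iMOP cells (median -0.41), with the complex III factor Uqcc2 at -2.32 and the copper chaperone Cox17 at 2.17, and 7 were higher and 7 lower with pT, with Pet100 at 1.69 and Uqcc2 at 1.67, where both shares (23.3%) were near those of all clusters. Of 16 import genes, 3 were higher and 9 lower in untransfected iMOP cells, and 8 were higher and 3 lower with pT in iMOP cells, with Timm13 at 1.92 and Tomm70a at -1.20. Of 19 genes of electron entry and mobile carriers, 5 were higher and 11 lower in untransfected iMOP cells, with the electron transfer flavoprotein subunit Etfb at -3.22 and Cyc1, the cytochrome of complex III, at -2.15, and 4 were higher and 5 lower with pT, with Cyc1 at 1.29 and Etfa at -1.04. Of 10 complex I assembly factors outside the Ndufaf names, 4 were higher and 4 lower in untransfected iMOP cells, with Nubpl at -1.39, and 3 were higher and 5 lower with pT, with Tmem126b at -1.02. Of 13 genes of uncoupling, inhibition and nucleotide exchange, 3 were higher and 5 lower in untransfected iMOP cells, with the ATP and ADP carrier Slc25a4 at 2.16 and Ckmt1 at -2.32, and 1 was higher and 5 lower with pT in iMOP cells. The other small lists had lower shares of 38.5% to 57.9% between the lines and of 18.8% to 50% with pT.

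Promoter letters were set beside the calls as a description. Of the 12 members with the longer NRF-1 letters, 4 were higher and 6 lower in untransfected iMOP cells, and 12 higher and 27 lower among the 60 members without them. With pT in iMOP cells 6 of the 12 were higher and 1 lower, and 21 of the 60 were higher and 5 lower, with median differences of 0.43 and 0.25. Of the 19 members with ETS letters, 10 were higher and 1 lower with pT in iMOP cells, and 17 higher and 5 lower among the 53 without. The shorter NRF-1 letters had 6 higher and 3 lower of 17 members, and 21 and 3 of the 55 without (medians 0.24 and 0.28). For YY1 letters the counts were 4 and 2 of 10, and 23 and 4 of the 62 without (0.34 and 0.25). For Sp1 letters they were 11 and 4 of 34, and 16 and 2 of the 38 without (0.25 and 0.34). The 5 printed sequences are a choice from the 12 members. Those of Uqcr11, Ndufa11, Atp5k and Sdhb belong to members that rose with pT in iMOP cells. That of Atp5l belongs to a member that was not called there (0.31, adjusted p = 0.182). The 1 member of the 12 that was lower there, Ndufaf4 (-0.69), is not among the printed ones.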

How the data were processed

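The 30 arrays were Mouse Gene 2.0 ST arrays labelled with the WT PLUS kit. The deposited log2 values come from RMA, run by the authors in Expression Console 1.4.1.46 according to the submitters' processing notes. No source used here names the arrays that entered the normalization together. Values were used as deposited, and 0 columns were left without a sample. Tests used limma 3.58.1 (R 4.3.3) over 25341 clusters with a symbol, and calls were made at a Benjamini-Hochberg adjusted p under 0.05. The untransfected lines were fitted on 6 arrays, contrasts within a line on 15 and differences between responses on 30. The fit was tested on simulated data. The number of arrays limits the precision. Gene spans and promoters came from RefSeq (GRCm38.p6).

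The members, the gene lists and the rule for named genes (the 3 highest and 3 lowest called members per comparison, restricted isoforms with their partners, up to 6 differences between lines, up to 4 called genes per list) were chosen with earlier results of these data known. Genes named outside it, such as further called members, single markers and ND3, were chosen after their values were seen. Replicate numbers are shared by the titles of all groups. Deviations of arrays with the same number correlated between -0.205 and 0.321 over 15 comparisons. Every pair was over 0.1 only for p183T against pT in iMOP cells, where numbers were read as a pairing on this ground alone. The main fit of that comparison did not use the pairing, which entered only the fit with a replicate block. The alternatives are given at the end of the text. The methods' test is the study's one-way test of each pair of groups.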

Additional observations from a re-analysis of the deposited data

Results flagged for a closer look

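The response to pT against untransfected cells differed between the lines by a test of the difference itself for 32 members that were higher and 8 that were lower in iMOP cells than in mESCs. The 6 of largest size, with the iMOP and the mESC response, were Uqcr11 (difference 2.09, from 1.71 and -0.38), Ndufa11 (1.82, from 1.61 and -0.21), Atp5e (1.62, from 1.30 and -0.32), Uqcrq (1.61, from 1.4 and -0.21), Ndufb8 (1.52, from 1.60 and 0.08) and Atp5k (1.49, from 1.07 and -0.41), with adjusted p from limma between 2.93e-06 and 0.000115. Members called higher had a median gene span of 6.2 kb and members called lower of 16.7 kb. Relative to genes of like span, the median difference of members was 0.21, beside 0.22 without this step, and 1 member called lower lay above 0. Line, transfection reagent and collection after the sort cannot be told apart in this difference. Groups of 3 arrays were too small for a search for outlying samples.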

How the results depend on the processing

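Of the counts of called members under settings other than left-out arrays, 190 stayed within 1.5 times the reported count and 17 did not. The 190 include counts of 0 that stayed 0 in the vector comparisons, so the tally does not measure the stability of the other counts. Of the members followed singly under each setting none changed direction. Of the other members called between the untransfected lines, Ndufa13 went from -0.43 to 0.02 with quantile normalization. For untransfected iMOP cells against mESCs, the 18 higher members became 28 with quantile normalization, 29 with arrays centred on their median, 4 by the methods' test at its thresholds, and 32, 31 and 31 when the lines were compared with pT, pAT and p183T, and the 38 lower became 22 by the methods' test at its thresholds. For pT in mESCs, the 2 lower became 1 in a fit of all 30 arrays, 4 with quantile normalization, and 1 by the methods' test at its thresholds and 1 after Benjamini-Hochberg. For pT in iMOP cells, the 31 higher became 16 by the methods' test after Benjamini-Hochberg, and the 10 lower became 5 with quantile normalization, 6 by the methods' test at its thresholds and 4 after Benjamini-Hochberg. The methods' test at its thresholds called 1 member, in place of 0, for p183AT against pAT in mESCs and for pAT against pT in iMOP cells. The causes were not tested. The median of members between the untransfected lines, -0.17, was 0.05 with quantile normalization, 0.14 with centring and 0.03 relative to all clusters.

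With each array left out in turn, the untransfected lines gave 14 to 20 higher and 34 to 37 lower, pT in mESCs 2 to 3 higher and 1 to 2 lower, pT in iMOP cells 26 to 34 higher and 7 to 12 lower, and the difference between lines 29 to 33 higher and 6 to 8 lower. The vector comparisons gave 0 to 0.

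With the replicate block the untransfected lines gave 19 higher and 37 lower, pT in mESCs 2 and 2, pT in iMOP cells 32 and 10, and the difference between lines 32 and 9. The blocked fit called 0 members in the vector comparisons, the paired one included. Leaving out dim clusters left 78 of 89 members tested. The number of arrays and dim values limit what could be detected.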
